A study of Homo sapiens with 4 samples.

Results

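The 8 genes described here write, maintain or remove 5-methylcytosine at CpG sites: the writers DNMT1, UHRF1, DNMT3A and DNMT3B and the erasers TET1, TET2, TET3 and TDG. They were chosen by their known roles, though with earlier results of these data known. They were found by symbol among the 60564 gene identifiers of the count files. All 8 passed the filter on low counts and were among the 22555 genes tested. RNA was sequenced from Elf1, a human ESC line in the naïve state, in 2 conditions with 2 libraries each, described by the study as independent biological replicates. The 2-D grown cells were adherent cultures on Matrigel. The 3-D grown cells were dissociated, encapsulated as single cells in scaffolds that assembled from PEG polymers carrying thiol and acrylate ends, and kept there for 21 days. Both conditions used the same expansion medium with FGF2, LIF and inhibitors of GSK3 and MEK, and the labels name no genetic change in either group. The cells are 1 line, and the 3-D cells were not passaged during the culture while the 2-D cells were, so passaging, time and scaffold cannot be told apart.

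In mammalian cells, DNMT3A and DNMT3B place methyl groups on unmethylated CpG sites. After DNA replication, UHRF1 binds hemimethylated sites and recruits DNMT1, which copies the mark to the new strand. TET enzymes oxidize the methyl group, TDG excises the more oxidized forms, and base excision repair then puts back an unmodified cytosine. Naïve human ESCs are known for low genomic methylation, and DNA methylation itself was not measured in these samples, so the values below are RNA levels only.

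DNMT1 and UHRF1 are known for expression tied to the cell cycle, and E2F factors, which drive genes of DNA replication, bind short words near the starts of their targets. The start regions of DNMT1 and UHRF1 are shown because they were the members with such a word. Windows of 300 bases around each start (250 before it and 50 from it onward) were taken from RefSeq on GRCh38.p14, and the words TTTCGCGC, TTTCCCGC, TTTGGCGC and TTTGCCGC were searched on both strands. These words were chosen after the values of the genes had been seen. All 8 members had at least 1 window. A word was found in 2 of 8 members, against 1090 of 27305 genes (3.992%) and 1164 of 35116 windows (3.315%). The letters before the start and the first 30 bases after it are printed with the matched word in capitals. The DNMT1 window lies on the minus strand at chr19:10194924-10195203 and its word begins at position -2 from the start, as GCGCGAAA. The first UHRF1 window lies on the plus strand at chr19:4909251-4909530 with GCGGGAAA at -14, and the second at chr19:4909894-4910173 with TTTCGCGC at -160.
DNMT1: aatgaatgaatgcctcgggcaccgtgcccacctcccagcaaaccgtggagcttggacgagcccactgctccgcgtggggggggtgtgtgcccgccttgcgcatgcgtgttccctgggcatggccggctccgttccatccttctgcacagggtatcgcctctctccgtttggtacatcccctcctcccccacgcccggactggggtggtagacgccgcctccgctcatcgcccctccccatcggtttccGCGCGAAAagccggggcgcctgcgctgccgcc
UHRF1 first start: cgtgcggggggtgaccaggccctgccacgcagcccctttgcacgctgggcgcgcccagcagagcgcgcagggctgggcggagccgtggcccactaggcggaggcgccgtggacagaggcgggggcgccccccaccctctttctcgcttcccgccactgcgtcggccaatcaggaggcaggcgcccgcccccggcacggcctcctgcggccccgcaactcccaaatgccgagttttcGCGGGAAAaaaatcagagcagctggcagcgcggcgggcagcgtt
UHRF1 second start: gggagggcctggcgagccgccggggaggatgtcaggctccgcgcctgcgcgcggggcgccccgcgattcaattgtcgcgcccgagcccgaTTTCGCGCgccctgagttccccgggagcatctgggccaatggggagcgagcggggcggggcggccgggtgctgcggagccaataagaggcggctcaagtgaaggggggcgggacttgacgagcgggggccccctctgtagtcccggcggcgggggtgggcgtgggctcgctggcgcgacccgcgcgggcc
The full DNMT1 window held 30 CpG sites, more than 77.58% of all windows, and the windows of UHRF1 held 36, 40 and 46, against a median of 14 over all windows. None of the searched words was found in the windows of DNMT3A, TET1, TET2, TET3 or TDG. The same was true of the only DNMT3B window in the table, at chr20:32779602-32779901, which begins inside the gene at an internal start and held 3 CpG sites. Such a match is a description of letters in these windows and says nothing of whether a factor was bound.

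Total counts were 33833778 and 30114220 for the 2-D pair, against 21154409 and 18276147 for the 3-D pair. Mitochondrial genes took 5.1% to 5.3% of the counts in 2-D and 8.33% to 8.5% in 3-D. Levels are given below as CPM, counts over the library total scaled with edgeR's TMM method, which compares a gene between libraries, or as TPM, which also divides by exon length and orders genes within a library. The label of a pluripotent line was checked against marker genes. Of 5 core pluripotency genes, all were detected, with summed levels of 2682 and 2697 CPM in 2-D and 2670 and 2766 CPM in 3-D, led by LIN28A, an RNA-binding protein, at 1721 to 1812 CPM. None was called, with 4 higher and 1 lower in 3-D. SOX2 (log2 fold change 0.14, adjusted p = 0.153) and NANOG (0.08, adjusted p = 0.173) had an unadjusted p below 0.05 in edgeR's quasi-likelihood test. Both were higher in both 3-D libraries, and SOX2 was called in 4 of 16 alternatives and NANOG in 1. Of 7 naïve markers, 6 were tested and none was called, with sums of 62.14 to 65.98 CPM over the 4 libraries led by TFCP2L1, while DPPA5 was at or near 0. In 3-D, 3 were higher and 3 lower, and 1, SUSD2, had an unadjusted p below 0.05. SUSD2 stood at 6.359 and 7.139 CPM in 2-D and 8.369 and 8.423 CPM in 3-D. Its log2 fold change was 0.32, with an adjusted p of 0.12 in edgeR's quasi-likelihood test, and it was called in 0 of 15 alternatives. KLF17 (0.51, adjusted p = 0.507) was low and overlapped. Of 7 primed markers, SFRP2 and THY1 were called higher in 3-D, with sums of 1412 to 1476 CPM. The sum of the naïve markers was thus far below that of the primed list, most of which was CD24 at 868.1 to 905.6 CPM. Trophoblast markers summed to 2.962 to 4.351 CPM with CGA at 0, and germ layer markers to 61.1 to 68.11 CPM, and no gene of either list was called in edgeR's quasi-likelihood test (1 and 2 genes had an unadjusted p below 0.05). HAND1, of the trophoblast list, stood at 0.6098 and 0.6815 CPM in 2-D and 1.265 and 1.283 CPM in 3-D (log2 fold change 0.98, adjusted p = 0.0695) and was called in 3 of 15 alternatives. GATA6, of the germ layer list, stood at 0.8421 and 1.103 CPM in 2-D and 2.335 and 1.506 CPM in 3-D (1.001, adjusted p = 0.0516) and was called in 6 of 15, edgeR's likelihood ratio test among both sets. Both genes were low, and higher in both 3-D libraries. Fibroblast and feeder markers summed to 456.3 to 505.8 CPM, mostly COL1A2. COL1A1 and COL3A1 were called higher in 3-D while LUM and DCN were below 1 CPM. S100A4 stood at 2.875 and 2.499 CPM in 2-D and 1.8 and 1.395 CPM in 3-D. Its log2 fold change was -0.74, with an adjusted p of 0.0534 in edgeR's quasi-likelihood test. COL1A2 (-0.04) and PDGFRB (0.02) were not called either. S100A4 and PDGFRB are named after their values were seen. In bulk RNA, fewer cells of a type and less RNA per cell cannot be told apart.

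Per exon length, the 8 genes spanned a wide range, with the de novo writer DNMT3B and the eraser TET1 at the top in all 4 libraries. DNMT3B stood at 462.5 and 475.5 TPM in 2-D and 474.8 and 519.4 TPM in 3-D. TET1, an oxidase with a CXXC domain that binds unmethylated CpG, stood at 188.4 and 194.3 TPM in 2-D and 183.1 and 192.7 TPM in 3-D. The gap between these genes was wider than the spread of either. UHRF1 followed in every library at 61.73 to 69.96 TPM. TDG (51.79 to 56.9 TPM), DNMT3A (49.34 to 51.75 TPM) and DNMT1 (50.39 to 54.32 TPM) changed places between libraries, so their order was not separated by the spread. TET3, at 9.922 to 11.42 TPM, and TET2, at 0.8114 to 1.176 TPM, were seventh and eighth in each library. TET1 was therefore the highest of the TET genes per length, and DNMT3B the highest of the DNMT genes. The order of the middle genes depended on the length used. With the length of 1 canonical transcript per gene, DNMT1 took the third place with means of 101 TPM in 2-D and 108.9 TPM in 3-D, and DNMT3A the sixth, while DNMT3B, TET1, TET3 and TET2 kept their places.

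**Figure D1:**
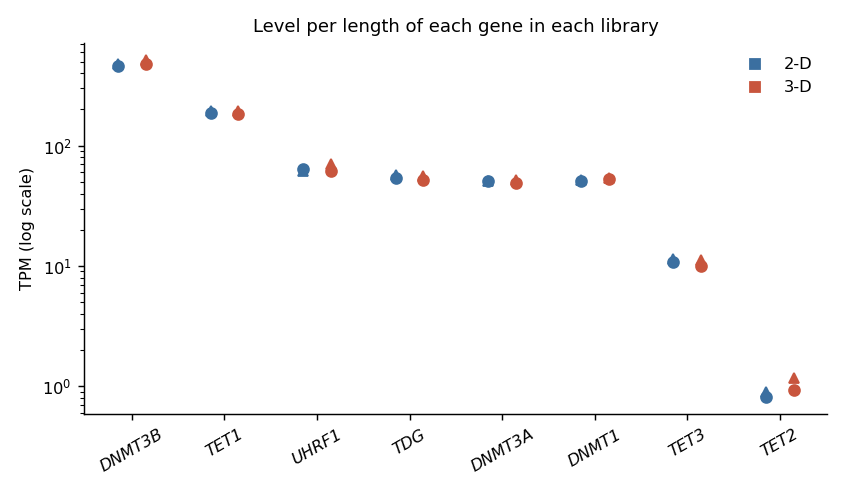
TPM of each gene on a log axis in the 4 libraries, with 2-D in blue, 3-D in red, circles for replicate 1 and triangles for replicate 2, and genes sorted by their 2-D mean. DNMT3B and TET1 lie above the other genes, TET2 lies lowest at 0.8114 to 1.176 TPM, and the points of the 2 conditions lie close together for every gene.

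Between the conditions, 3 of 8 members were called at a Benjamini-Hochberg adjusted p below 0.05 in edgeR's quasi-likelihood test, all higher in 3-D: DNMT1, UHRF1 and DNMT3B. Over all tested genes 1782 were called (7.9%), of which 1024 were higher in 3-D (4.54%) and 758 lower (3.36%). With scaling by library size only, this split became 514 higher and 1879 lower, and 2 members, DNMT1 and DNMT3B, were called higher. Without 2-D replicate 2, 974 genes and 1 member, DNMT3B, were called, and without 2-D replicate 1, 1186 genes and 3 members. Among the 10211 tested genes with a mean of at least 10 CPM, 15.1% were called, 8.98% as higher and 6.09% as lower. All 8 members had a positive log2 fold change (3-D over 2-D) with a median of 0.12, against a median near 0 (-0.000135) over all tested genes, but with library size only the direction of TET1, TET3 and TDG turned. The libraries of the conditions did not overlap for 7 of 8 members, against 50.5% of all tested genes and 61.9% of those with at least 10 CPM. The called members comprised 3 of 4 writers and 0 of 4 erasers. Before adjustment, 5 of 8 members had a p below 0.05 (the 4 writers and TET2), as did 21.3% of all tested genes. That share was not computed for genes with at least 10 CPM. DESeq2 called 2 members, DNMT1 and DNMT3B, and no eraser, though it gave no adjusted p for TET2. The called changes were small, between 11.9% and 12.6%. In simulated counts of these libraries, the test found 34.3% of genes changed 1.2-fold and 92.5% of those changed 1.5-fold. The called changes lay below the smallest of these folds. The simulated changed genes came from a wide range of levels, so these shares are not the rates for genes as high as the called members.

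**Figure D2:**
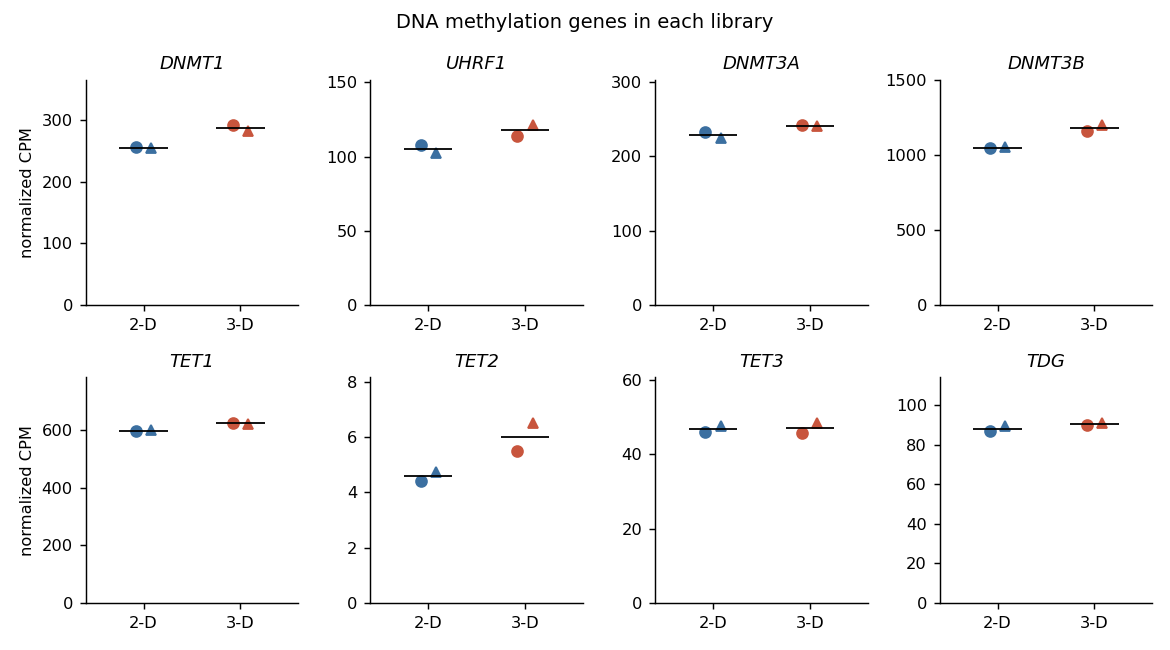
CPM of each gene in the 2-D (blue) and 3-D (red) libraries, 1 panel per gene, with circles for replicate 1, triangles for replicate 2 and a black line at the mean of each condition. Both 3-D libraries lie above both 2-D libraries in every panel but that of TET3.

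DNMT1, the maintenance methyltransferase, lies on hg38 at chr19:10133342-10231286 on the minus strand. It stood at 255.9 and 253.9 CPM in 2-D and at 291.9 and 281.4 CPM in 3-D. Both 3-D libraries were above both 2-D libraries, and the gap was wider than the spread within either pair (254.9 ± 1.36 against 286.7 ± 7.40, SD, n = 2). Its log2 fold change was 0.17 with a standard error of 0.031, a rise of 12.5% (95% interval 0.10 to 0.24 on the log2 scale), with an adjusted p of 0.00516 in edgeR's quasi-likelihood test. The call was lost with offsets for length and GC content (adjusted p = 0.0511) and without 2-D replicate 2 (adjusted p = 0.0647). Only 83 bases of its merged exons (0.539697%) are shared with another gene, S1PR2, on the same strand.

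UHRF1, the reader of hemimethylated CpG that brings DNMT1 to newly replicated DNA, lies at chr19:4903080-4962154 on the plus strand of hg38. Its levels were 107.8 and 102.2 CPM in 2-D and 113.8 and 121.3 CPM in 3-D. The lower 3-D library lay above the higher 2-D library, though by about as much as the libraries of a condition lay apart. It rose by 11.9%, a log2 fold change of 0.16 with a standard error of 0.038, with an adjusted p of 0.0219 in edgeR's quasi-likelihood test. This was the least firm of the called members, and the call was lost with the likelihood ratio test (adjusted p = 0.068), with DESeq2 (0.079), with scaling by library size only (0.153) and without 2-D replicate 2 (0.229). A processed pseudogene inside PDE3A on chromosome 12, ENSG00000256663, matched 64.79% of the UHRF1 transcript with 99.25% identity, and how reads with several matches were counted is not given. The pseudogene held 221 and 201 counts in 2-D and 156 and 147 counts in 3-D, which was 5.62% to 6.33% of its counts and those of UHRF1 together. With both counted as 1 gene, an addition made after seeing the data, the log2 fold change was 0.17 with an adjusted p of 0.0157.

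DNMT3B, a de novo methyltransferase typical of pluripotent cells, lies at chr20:32762385-32809359 on the plus strand of hg38. Its levels were 1050 and 1052 CPM in 2-D and 1164 and 1203 CPM in 3-D. The 2-D libraries were nearly equal and both 3-D libraries lay well above them (1051 ± 1.2 against 1184 ± 27.9, SD, n = 2). It rose by 12.6%, a log2 fold change of 0.17 with a standard error of 0.030 (95% interval 0.11 to 0.24), with an adjusted p of 0.00429 in edgeR's quasi-likelihood test. The call was lost with the likelihood ratio test, where the adjusted p was 0.0538, and kept in 15 of 16 alternatives. Of the called members it had the smallest p, and it ranked 527 among the tested genes.

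DNMT3A, the other de novo enzyme, lies at chr2:25227855-25342590 on the minus strand. It stood at 233.4 and 224.9 CPM in 2-D and 242.5 and 240.3 CPM in 3-D. The libraries did not overlap, but the 2-D libraries lay further apart than the gap between the conditions. The log2 fold change was 0.07 with a standard error of 0.031 (95% interval 0.01 to 0.14), and the adjusted p of 0.187 in edgeR's quasi-likelihood test missed the threshold, as it did in every alternative run. The ratio of DNMT3B to DNMT3A was 4.499 and 4.677 in 2-D and 4.801 and 5.008 in 3-D. Its log2 value was higher in 3-D by 0.10, with both 3-D libraries above both 2-D libraries. An exact two-sided permutation test gave p = 0.333, which is the smallest p that 2 against 2 libraries allow.

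**Figure D3:**
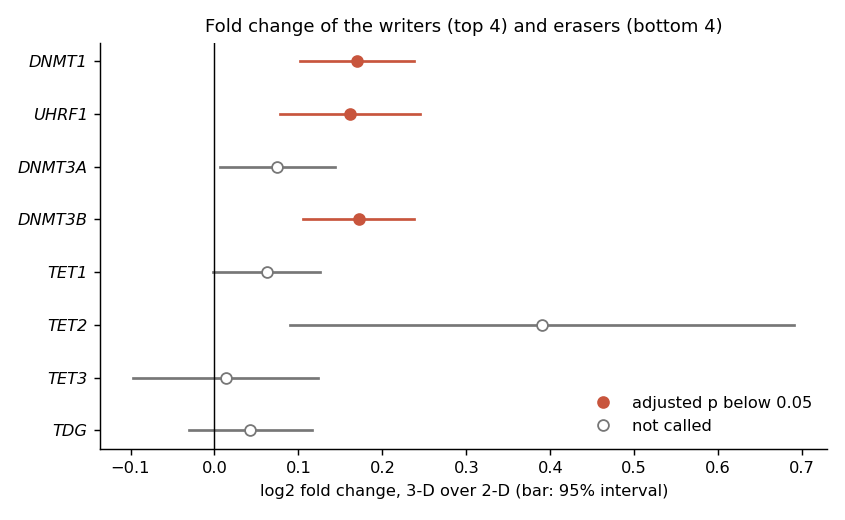
Log2 fold change (3-D over 2-D) for each gene, with bars for the 95% interval and filled points for genes called at an adjusted p below 0.05. DNMT1, UHRF1 and DNMT3B are filled, near 0.17, and TET2 has the highest value, 0.39, with the widest interval.

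Among the erasers, TET1 (chr10:68560337-68694487, plus strand) stood at 597.9 and 600.8 CPM in 2-D and 627.4 and 624 CPM in 3-D. Each pair was tight and the pairs did not overlap, at a difference of 4.4%. The log2 fold change of 0.06 (standard error 0.029, 95% interval -0.00 to 0.13) had an adjusted p of 0.245 in edgeR's quasi-likelihood test, and was -0.00 with scaling by library size only. The upper end of this interval lay below the estimates of the 3 called writers. It overlapped their intervals, which began at 0.10 for DNMT1, 0.08 for UHRF1 and 0.11 for DNMT3B. A difference between TET1 and these writers was not tested.

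TET2, an oxidase that lacks the CXXC domain of its relatives, lies at chr4:105145875-105279816 on the plus strand and was the lowest member. Its levels were 4.414 and 4.738 CPM in 2-D and 5.498 and 6.527 CPM in 3-D, from 152, 146, 113 and 117 counts. The 3-D libraries were higher and also further apart than the 2-D libraries. Its log2 fold change of 0.39 was the largest estimate among the members and the least precise (standard error 0.138, 95% interval 0.09 to 0.69), with an adjusted p of 0.117 in edgeR's quasi-likelihood test. Without 3-D replicate 1 the value was 0.51 and was called (adjusted p = 0.0271), on the assumption that the remaining 3-D library varies like the 2-D pair. 

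TET3, the TET enzyme known from the zygote, lies at chr2:73984910-74108176 on the plus strand. It stood at 45.85 and 47.54 CPM in 2-D and 45.78 and 48.53 CPM in 3-D. The libraries of the conditions overlapped, as in no other member. Its log2 fold change was 0.01 (standard error 0.051, 95% interval -0.10 to 0.12) with an adjusted p of 0.918 in edgeR's quasi-likelihood test. The direction of the estimate turned in 5 of 16 alternatives. An unnamed lncRNA, ENSG00000235499, shares 390 bases (3.01%) of its exons on the same strand. The ratio of TET1 to TET3 was 13.04 and 12.64 in 2-D and 13.7 and 12.86 in 3-D, and these values overlapped (exact two-sided permutation p = 0.667).

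TDG, the glycosylase that removes oxidized methylcytosine, lies at chr12:103965822-103988874 on the plus strand. Its levels were 86.85 and 89.41 CPM in 2-D and 90.21 and 91.32 CPM in 3-D. The conditions did not overlap, yet the gap between them was smaller than the distance between the 2-D libraries. The log2 fold change was 0.04 (standard error 0.034, 95% interval -0.03 to 0.12) with an adjusted p of 0.533 in edgeR's quasi-likelihood test, and was -0.02 with scaling by library size only. The pseudogene TDGP1 on chromosome 12 (chr12:25803298-25804526) matched 96.39% of the TDG transcript with 97.82% identity and held 2% to 2.88% of the counts of the pair. A lncRNA also shares 168 bases (3.44%) of the exons of TDG.

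Summed over the writers and over the erasers, the ratio of CPM was 2.241 and 2.199 in 2-D and 2.357 and 2.396 in 3-D. DNMT3B alone held 44.08% to 45.99% of the counts of all members, and TET1 23.85% to 25.3%. Each was the largest part of its sum, so the ratio mostly reflects DNMT3B over TET1. Both 3-D libraries had the higher ratio, by 0.10 on the log2 scale, and an exact two-sided permutation test gave p = 0.333, the smallest that 2 against 2 libraries allow. The ratio of DNMT1 to UHRF1 was 2.374 and 2.486 in 2-D and 2.565 and 2.321 in 3-D, and it overlapped between the conditions (exact permutation p = 1). The difference in calls between writers and erasers was not tested otherwise.

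For each called member, the 3 protein-coding genes with the nearest profile over the 4 libraries were found among 5799 genes of at least 5 in mean log2 CPM. Nearness is the Euclidean distance of log2 CPM centred on the mean of the gene. For DNMT1 these were ANKRD17, SETDB1 and SPEN, at distances of 0.00527 to 0.0112 against a median of 0.177. For UHRF1 they were LRP1, NUMA1 and CCDC88C (0.00692 to 0.0159, median 0.187). For DNMT3B they were ITGB1, PLD3 and ZNF142 (0.0104 to 0.0133, median 0.177). With 4 libraries of 2 conditions, a near profile mostly reflects a like fold change.

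Other genes of the pathway were read from lists, chosen with earlier results of these data known. Of 11 partners, cofactors and relatives of the writers, 1 was called higher and 1 lower. Their median log2 fold change was -0.07, against -0.00 over all tested genes. An unadjusted p below 0.05 was seen for 8 of the 11, against 21.3% of all tested genes, and 5 of the 8 had a negative log2 fold change (UHRF2, HELLS, CDCA7, PCLAF and TRDMT1, named after their values were seen). The 21.3% was not computed for genes of like level. Called genes made up 7.9% of all tested genes but 15.1% of those with at least 10 CPM. CDCA7, a partner of the remodeler HELLS that is needed for maintenance methylation, stood at 90.57 and 95.34 CPM in 2-D and 74.88 and 77.82 CPM in 3-D. Both 3-D libraries were lower, with a log2 fold change of -0.28 (standard error 0.038) and an adjusted p of 0.000759 in edgeR's quasi-likelihood test. This direction was opposite to that of DNMT1 and UHRF1, and the call held in 16 of 16 alternatives. USP7, a deubiquitinase that binds DNMT1 and UHRF1, rose from 454.3 and 446.1 CPM to 493.1 and 483.9 CPM (0.12, adjusted p = 0.0315 in edgeR's quasi-likelihood test), a call kept in 11 of 16 alternatives and lost without either 2-D library. HELLS itself had a log2 fold change of -0.08 with an adjusted p of 0.186. DNMT3L, the catalytically inactive relative of the de novo enzymes, stood at 16.52, 17.49, 17.86 and 14.56 CPM in the order 2-D replicates 1 and 2 and 3-D replicates 1 and 2, and DPPA3, an inhibitor of UHRF1, at 6.011, 7.431, 6.958 and 5.746 CPM. The conditions overlapped for both.

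Of 8 partners and antagonists of the TET enzymes, 1 was called, with a median of -0.04. PROSER1, a partner of OGT and TET proteins, stood at 151.8 and 153.6 CPM in 2-D and 190.5 and 193.5 CPM in 3-D. Each pair was tight and the 3-D pair lay far above. The log2 fold change of 0.33 (standard error 0.030, a rise of 25.8%) had an adjusted p of 3.49e-05 in edgeR's quasi-likelihood test, a change larger than that of any called member, and was called in 16 of 16 alternatives. OGT had a log2 fold change of -0.05 with an adjusted p of 0.376, and IDH2, a source of the TET cofactor, had 0.15 with an adjusted p of 0.222.

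Of 12 base excision repair genes, 1 was called, the abasic site endonuclease APEX1 at 215.3 and 217.2 CPM in 2-D and 243.3 and 231.8 CPM in 3-D (0.14, adjusted p = 0.0228 in edgeR's quasi-likelihood test, called in 12 of 16 alternatives and not without either 2-D library). The scaffold protein XRCC1 had a log2 fold change of 0.16 with an adjusted p of 0.238. Of 5 readers of unmethylated CpG, 1 was called, the H3K4 methyltransferase KMT2B at 90.22 and 87.46 CPM in 2-D and 99.99 and 99.79 CPM in 3-D (0.17, adjusted p = 0.00774 in edgeR's quasi-likelihood test, called in 11 of 16 alternatives and not without 2-D replicate 2). The median of these 5 genes was 0.09, and 0.02 with library size only. Of 6 genes of methyl donor supply, 2 were called higher. AHCY, which clears the product that inhibits methyltransferases, stood at 244.4 and 242.6 CPM in 2-D and 268.7 and 258.9 CPM in 3-D, and was called in 7 of 16 alternatives. SLC19A1, a folate carrier, stood at 321.9 and 320 CPM in 2-D and 342.2 and 357 CPM in 3-D and was called in 10 of 16. Both calls were lost without either 2-D library. With library size only, no gene was called higher in the lists of writer partners and relatives, repair, readers of unmethylated CpG and donor supply. In the first of these lists, 4 genes were called lower.

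Of 3 genes that maintain imprints, ZNF445 and TRIM28 were tested and neither was called by edgeR's quasi-likelihood test (1 had an unadjusted p below 0.05), at log2 fold changes of -0.09 and 0.02. ZNF445, a zinc finger protein that protects imprints, stood at 97.89 and 96.32 CPM in 2-D and 92.4 and 89.42 CPM in 3-D (adjusted p = 0.116), and was called lower in 4 of 16 alternatives, with library size only (adjusted p = 0.00985), with offsets for length and GC content (0.0438), with these and the block (0.0247) and without 3-D replicate 1 (0.0424). The direction of TRIM28 turned in 5 of 16, and ZFP57 had 0, 0, 10 and 0 counts. Of 15 germline genes known to be silenced by promoter methylation, 4 passed the filter on low counts and none was called, with 1 at an unadjusted p below 0.05. The highest, the meiotic chromosome protein SYCP3, stood at 5.343 and 4.284 CPM in 2-D and 3.503 and 3.57 CPM in 3-D (log2 fold change -0.45, adjusted p = 0.122 in edgeR's quasi-likelihood test). The list summed to 8.794 and 9.321 CPM in 2-D and 7.542 and 8.869 CPM in 3-D, values that overlapped.

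**Figure D4:**
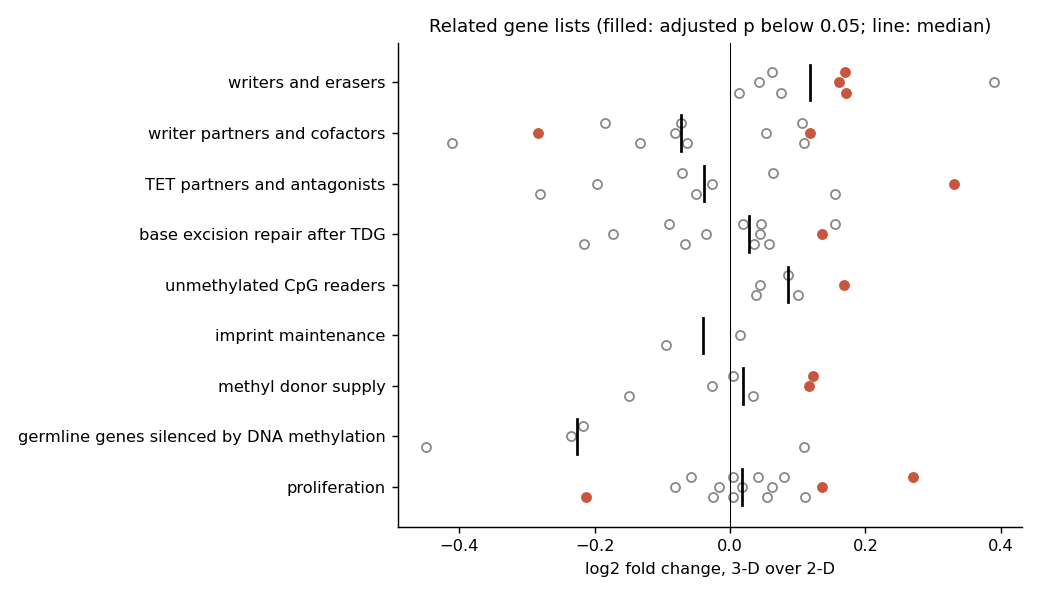
Log2 fold change (3-D over 2-D) for the tested genes of each list, with 1 point per gene, filled where the adjusted p is below 0.05, and a black line at the median of the list. Most genes lie near 0, with CDCA7 at -0.28 and PROSER1 at 0.33 as the called genes of the methylation lists that lie farthest out.

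Because DNMT1 and UHRF1 are known to follow the cell cycle, 15 proliferation genes were read beside them, and their part in the result was not tested. The list had 2 genes called higher and 1 called lower, with a median log2 fold change of 0.02, and its summed level was 3053 and 3073 CPM in 2-D and 3167 and 3190 CPM in 3-D. MKI67 rose from 427.6 and 417.7 CPM to 521 and 498.3 CPM (0.27, adjusted p = 0.000363 in edgeR's quasi-likelihood test), while CDK1, the mitotic kinase, fell from 117.2 and 119.4 CPM to 102.3 and 101.8 CPM (-0.21, adjusted p = 0.00116), and both held in 16 of 16 alternatives. The replication helicase subunit MCM5 was called higher (0.14, adjusted p = 0.0427) but held in 5 of 16. PCNA, which holds DNMT1 at the replication fork, stood at 185.1 and 186.3 CPM in 2-D and 181.6 and 191.1 CPM in 3-D, with an adjusted p of 0.963. The proliferation genes thus moved in both directions, and with library size only 1 was called higher and 3 lower, with a median of -0.05. Of 12 proliferation genes with a RefSeq window, 8 held one of the E2F words (66.67%). So did 3 of 5 genes of methyl donor supply (60%) and 4 of 10 writer partners and cofactors (40%), against 2 of 8 members (25%). Over all genes the share was 3.992%, and in several lists, the TET partners among them, it was 0.

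**Figure D5:**
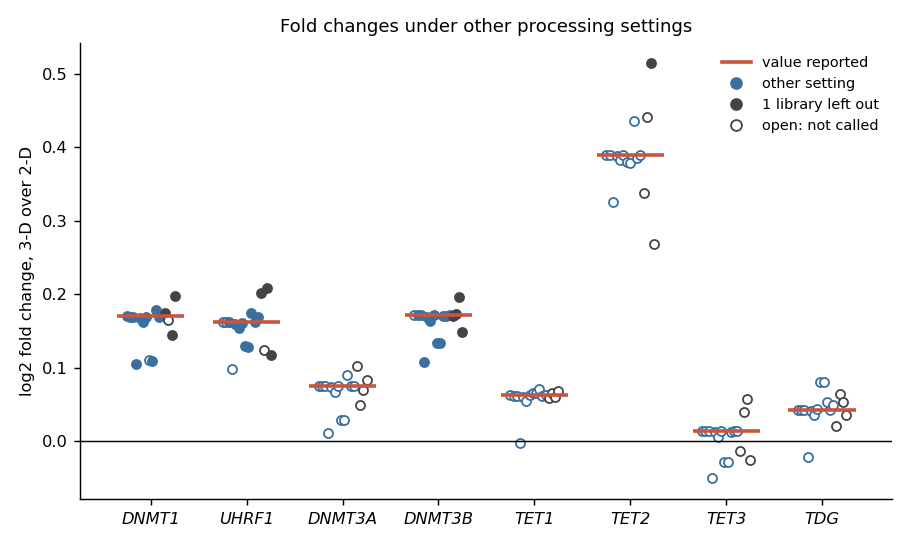
Log2 fold change of each gene as reported (red line) and under the other processing settings (blue points) or with 1 library left out (dark points), with open points where the gene was not called. The points of DNMT1, UHRF1 and DNMT3B stay above 0 throughout, and those of TET3 fall on both sides of 0.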

How the data were processed

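RNA was sequenced from 2-D and 3-D grown Elf1 cells, with 2 libraries per condition. Per the study's methods, the authors depleted ribosomal RNA, trimmed paired reads with Trim Galore 0.6.3, mapped them to hg38 with HISAT2 2.1.0 and counted them on GENCODE genes with featureCounts 1.6.4. Whether counting used strand, and how it treated reads with several matches, is not given in the sources used here. The counts were deposited for each library, unpooled and not normalized. The authors also deposited a normalized signal, in which the counts of a library are scaled by its DESeq2 size factor, and this was used in 1 alternative. The authors' fold changes and p-values in the same table were not used.

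Symbols, positions and exon lengths came from GENCODE release 44 (60295 of 60564 identifiers matched). The methods name another GENCODE release for the counting, so TPM divides counts by exon lengths that may differ from those counted on. Counts were tested with edgeR 4.0.16 in R 4.3.3 (TMM, its filter on low counts, 22555 genes, quasi-likelihood test on condition, Benjamini-Hochberg adjustment), and an adjusted p below 0.05 is called. The biological coefficient of variation was 5.1%. Counts of the libraries of a condition differed by more than sampling noise (chi-square over degrees of freedom 2.508 in 2-D and 4.389 in 3-D), so each was kept as a replicate. TPM used merged exon lengths. Copies were sought with minimap2 2.31-r1302. The test was tried on simulated counts of 22555 genes with 200 changed. It called 151 of the changed genes and 22 unchanged genes. False calls were thus a larger share of all calls there than the threshold of 0.05 aims at. Tables and figures used limma 3.58.1, Python 3.11.15, pandas 2.3.3, numpy 2.4.6 and matplotlib 3.10.9.

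Members, lists and alternatives were chosen with earlier results of these data known. Named genes are the members, in each list the called genes (or the 2 with the smallest p where fewer than 2 were called), the highest marker of a list, the 3 nearest profiles of each called member, and copies or overlaps. A few other members of the lists (HELLS, DNMT3L, DPPA3, OGT, PCNA) were named for their roles after their values were seen, and some genes the rule gives are left to the counts of their list. One list and its gene are not reported here. Other settings tried were DESeq2 1.42.0 and edgeR's likelihood ratio test as tests, size factors from DESeq2 or the plain library size as scaling, a floor of 10 counts in each library or no low-count filter, a spline correction (5 degrees of freedom) for GC content and gene length, the replicate number as a block with and without that correction, thinning of the 2-D libraries to the 3-D depth, limma-trend on the deposited normalized signal (log2 after adding 1), and leaving out each library. Canonical lengths, and copies counted with UHRF1 and TDG, were added after seeing the data. The setting with copies is among the alternatives counted for each gene. It could barely change genes other than UHRF1 and TDG, so a call kept there adds no support for them.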

Additional observations from a re-analysis of the deposited data

How the results depend on the processing

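Genes called over all tested genes were 1139 with the likelihood ratio test (651 higher in 3-D, 488 lower), 834 with DESeq2 (531 higher, 303 lower) and, with library size only, 514 higher and 1879 lower, a scaling that shifts the median log2 fold change by -0.0644. With 1 library left out they were 974 to 2643 (560 to 1468 higher, 414 to 1175 lower), and 1 to 4 members were called, all higher and 0 lower. The lowest of each came without 2-D replicate 2. These fits assume that the lone library varies like the other pair. The likelihood ratio test called 1 member, DNMT1. Calls were lost for DNMT1 with offsets for length and GC content (0.1099) and without 2-D replicate 2, for UHRF1 with the likelihood ratio test (0.1618), DESeq2 (0.1617), library size only (0.09757) and without 2-D replicate 2, and for DNMT3B with the likelihood ratio test (0.1716). The cause was not tested. With 1 library left out, log2 fold changes ranged over 0.1438 to 0.1971 for DNMT1, 0.1175 to 0.2085 for UHRF1, 0.149 to 0.1965 for DNMT3B, 0.04836 to 0.1014 for DNMT3A, 0.05787 to 0.06765 for TET1, 0.2679 to 0.5145 for TET2, -0.02642 to 0.05701 for TET3 and 0.02084 to 0.06341 for TDG. TET2 was called without 3-D replicate 1 only. With library size only, TET1 (-0.002278), TET3 (-0.05082), TDG (-0.02193) and TRIM28 (-0.04896) turned negative. TET3 also did with the offsets (-0.02837, with the replicate block -0.02822) and without 2-D replicate 1 (-0.01325) or 3-D replicate 2 (-0.02642), and TRIM28 with the offsets (-0.03382, with the replicate block -0.03397) and without 2-D replicate 2 (-0.002083) or 3-D replicate 2 (-0.04218, with 0.07304 the highest of these fits).

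With the replicate number as a block, 2167 genes and 3 members were called, with DNMT1 at 0.1693, UHRF1 at 0.1613 and DNMT3B at 0.1714. The labels give the numbers no shared origin, and deviations of same-numbered libraries had a correlation of -0.0458 over 10211 genes, so the block is given only here. DESeq2 gave no adjusted p for TET2. With 1 library left out, the log2 ratio (3-D minus 2-D) ranged over -0.06588 to 0.07845 for DNMT1 to UHRF1, which changed sign, 0.002377 to 0.09419 for TET1 to TET3, 0.06563 to 0.1268 for DNMT3B to DNMT3A and 0.0848 to 0.112 for writers to erasers.

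Limits are the 2 libraries per condition, the small size of the changes, their dependence on scaling and the use of 1 cell line. The counts allow no statement on methylation, protein or activity.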
